A study of Mus musculus with 9 samples.

Results

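The transcription factor p53, encoded by Trp53, its inhibitor Mdm2 and 8 p53 target genes (Perp, Trp53inp1, Btg2, Zmat3, Ccng1, Sesn1, Sesn2 and Phlda3) were followed in mouse leukaemia cells after suppression of Polycomb repressive complex 2 (PRC2). The 10 genes were chosen by their place in the p53 pathway, with earlier results of these data known. Each measured gene was represented by the brightest probe set that carries its symbol alone. Of the 10, 9 were measured here, among 19937 genes tested, and Trp53 itself was not analysed here. The cells were a murine acute myeloid leukaemia line carrying MLL-AF9 and NrasG12D on a B6/SJL (CD45.2) background, and every group carried both oncogenes and an MSCV-based LMN vector. Cells with a control shRNA against Renilla luciferase (Rluc) were compared with cells in which Eed or Suz12 was targeted, all at day 5, with 3 arrays in each group and 9 in all. Eed and Suz12 are core subunits of PRC2, which methylates histone H3 at silenced genes, and the study looked for the downstream targets of the complex. All groups came from the same line, the labels name 1 shRNA for each target without its sequence, and separate transductions within a group are not stated. The p-values below therefore cover array-to-array spread that may be no more than technical.

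p53 is a stress-activated transcription factor whose own activity is set mainly by protein stability and modification. The ubiquitin ligase Mdm2 binds p53 and marks it for degradation, and since Mdm2 is itself a p53 target the pair forms a negative feedback loop. The Cdkn2a locus encodes, beside p16Ink4a, the protein p19Arf, which restrains Mdm2, and this locus is a classic Polycomb target. In blood cells p53 target genes act on cell division, DNA repair, redox balance and cell survival, and not all of them depend on p53 alone. Perp was discovered as an apoptosis-associated p53 effector, and Trp53inp1 and Phlda3 have also been linked to cell death.

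The promoters are shown first, because p53 acts on its targets through a decamer, the p53 half-site, usually present as a pair. RefSeq promoter windows, 250 bases before to 50 after a transcription start on GRCm38.p6, were held for 6 of the 9 genes, with 7 windows in all since Sesn1 has 2 starts. The half-site consensus, read on both strands with 0 mismatches, was found in 3 of these 7 windows and in 8.36% of 32851 windows of the same length genome-wide. The windows that held it are those of Mdm2, Ccng1 and the downstream start of Sesn1, printed below from 5′ to 3′ on the strand of the gene, with the half-site in capitals.
Mdm2, chr10:117710709-117711008, minus strand: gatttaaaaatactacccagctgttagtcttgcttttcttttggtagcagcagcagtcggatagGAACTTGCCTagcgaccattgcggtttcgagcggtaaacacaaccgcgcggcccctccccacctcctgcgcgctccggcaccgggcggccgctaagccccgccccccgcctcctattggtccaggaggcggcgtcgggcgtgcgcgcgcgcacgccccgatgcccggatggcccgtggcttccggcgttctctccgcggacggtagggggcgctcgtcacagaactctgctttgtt
Ccng1, chr11:40755237-40755536, minus strand: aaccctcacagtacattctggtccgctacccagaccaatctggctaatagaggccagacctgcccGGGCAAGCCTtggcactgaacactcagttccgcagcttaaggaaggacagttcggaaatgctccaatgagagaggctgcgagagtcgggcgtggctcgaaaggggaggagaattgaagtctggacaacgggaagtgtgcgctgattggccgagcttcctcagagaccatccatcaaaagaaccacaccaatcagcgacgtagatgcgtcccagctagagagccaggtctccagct
Sesn1, chr10:41887189-41887488, plus strand: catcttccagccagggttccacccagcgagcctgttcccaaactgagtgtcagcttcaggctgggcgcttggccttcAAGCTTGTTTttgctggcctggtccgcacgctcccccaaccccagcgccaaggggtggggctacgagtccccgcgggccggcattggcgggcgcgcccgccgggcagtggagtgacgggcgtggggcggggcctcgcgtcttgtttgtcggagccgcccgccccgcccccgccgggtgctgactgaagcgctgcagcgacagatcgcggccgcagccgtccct
The half-sites began at base -186 of Mdm2, -185 of Ccng1 and -173 of Sesn1, counted from the start site. A pair of adjoining half-sites was searched for with the central bases of both intact and up to 2 mismatches elsewhere. It was found in 0 of the 7 windows and in 0.158% of all windows. Pairs set apart by other bases, and sites of these genes outside the windows, were not searched for. In the Ccng1 window the bases agacctgccc directly before the capitals differ from the half-site consensus only at a central base. The search allowed no central mismatch, so this stretch was not counted as a pair. The windows of Btg2, Sesn2, Phlda3 and the upstream start of Sesn1 held no half-site, which says only that these letters are not in this stretch. A match in letters is a description and not evidence of binding.

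Both shRNAs acted on their targets. Values are log2 RMA levels, with array medians between 6.86 and 6.95. Eed stood at 10.22 ± 0.07 (SD, n = 3) in the controls and fell by 1.75 on the log2 scale under its own shRNA (adjusted p = 3.1e-07), and Suz12 fell by 1.98 from 12.14 ± 0.08 under its shRNA (adjusted p = 5.44e-08). The line carried the defining genes of myeloid leukaemia, with Ptprc, Spi1, Cebpa, Kit, Itgam, Mpo, Csf1r, Hoxa9 and Meis1 all above 6.32, a guide to background under which 95% of 1027 olfactory receptor genes fell in the controls. Of 7 markers of B, T, epithelial and fibroblast cells, Pax5 and Epcam lay below that guide in the controls. The others, Cd8a, Cd3e, Col1a2, Krt8 and Col1a1, lay above it there, between 6.33 and 7.81. A level above the guide is therefore not by itself a sign of expression. All 9 p53 pathway genes had means above the guide in all 3 groups, although control replicate 1 of Perp read 6.10, below it. In bulk RNA a change in the level per cell and a change in the share of cells of one kind cannot be told apart.

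Of the 9 genes, 8 rose under each shRNA and 0 fell. Since the genes were chosen with earlier results of these data known, these counts are a description. As a background, 21.8% of all genes were called under Eed shRNA at an adjusted p under 0.05 (8.78% higher and 13.1% lower) and 21.2% under Suz12 shRNA (8.25% higher and 12.9% lower), so a call of some kind was common in both comparisons and a rise less so. The balance of all calls moved with the scaling: 40.2% of the Eed shRNA calls were higher, against 29.4% after array median centring and 50.6% after cyclic loess, and the figures for Suz12 shRNA were 38.9%, 32.5% and 52.5%. Under each of these scalings the number of these genes that fell was 0. The median change of the 9 was 0.59 under Eed shRNA and 0.64 under Suz12 shRNA on the log2 scale, beside -0.01 and -0.02 over all genes. A moderated F test over the 3 groups called 8 of the 9, beside 21.1% of all genes. The 2 comparisons share their control arrays, so their agreement is not independent evidence.

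**Figure D1:**
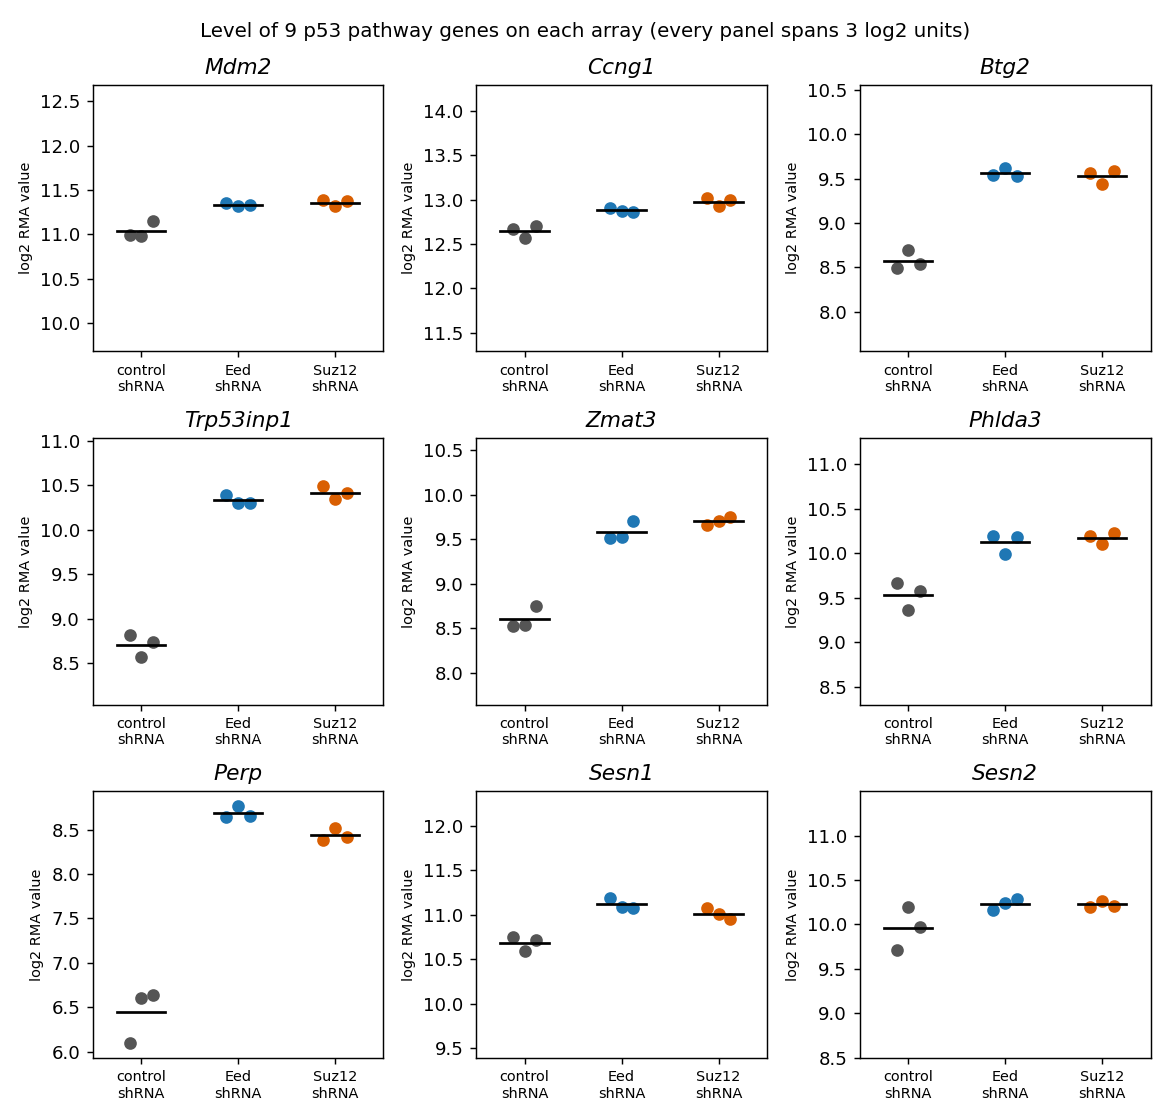
Log2 RMA value of each measured gene (1 panel per gene, each spanning 3 log2 units) on every array, by shRNA group, with points for arrays and a bar for the group mean of 3. The knockdown arrays lie above the controls in every panel except Sesn2, where 1 control at 10.20 reaches the Eed shRNA arrays, and the gap is widest for Perp and Trp53inp1.

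Mdm2, the negative regulator, rose by a small and even amount. Its control arrays read 10.996, 10.982 and 11.147, the Eed shRNA arrays 11.352, 11.322 and 11.332, and the Suz12 shRNA arrays 11.384, 11.319 and 11.374. Every knockdown array lay above every control array, and the 2 knockdown groups overlapped. Eed shRNA raised it 1.23-fold (log2 change 0.29, SE 0.05, adjusted p = 0.00156). Suz12 shRNA raised it 1.25-fold (0.32, SE 0.05, adjusted p = 0.0011). Ccng1, which encodes cyclin G1, a p53 target that recruits a phosphatase to Mdm2, read 12.67, 12.57 and 12.70 in the controls. Under Eed shRNA it read 12.91, 12.88 and 12.86, and under Suz12 shRNA 13.013, 12.924 and 12.998. The 3 groups did not overlap, and the changes were 0.23 (1.18-fold, SE 0.05, adjusted p = 0.00411) and 0.33 (1.26-fold, adjusted p = 0.000635). Under Eed shRNA these were the smallest called rises of the set, and under Suz12 shRNA Sesn1 (0.33) lay between them.

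The antiproliferative gene Btg2, a cofactor of mRNA deadenylation that slows cell division, rose by a similar amount in both comparisons. It read 8.49, 8.70 and 8.53 in the controls, 9.54, 9.62 and 9.53 under Eed shRNA, and 9.57, 9.44 and 9.59 under Suz12 shRNA. Both knockdown groups lay clear of the controls and overlapped each other. The rise was 1.99-fold (0.99, SE 0.06, adjusted p = 3.07e-06) and 1.94-fold (0.96, SE 0.06, adjusted p = 3.56e-06).

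Trp53inp1, whose nuclear protein binds kinases that phosphorylate p53 and which also takes part in autophagy, rose more. The control arrays stood at 8.81, 8.57 and 8.74, the Eed shRNA arrays at 10.39, 10.30 and 10.30, and the Suz12 shRNA arrays at 10.50, 10.34 and 10.42. The lowest knockdown array was thus far above the highest control. The rise with Eed suppressed was 3.09-fold (1.63, SE 0.07, adjusted p = 1.83e-07). With Suz12 suppressed it was 3.28-fold (1.71, SE 0.07, adjusted p = 1.35e-07), and both changes stood at the 99.86 percentile of the changes of all genes.

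Zmat3, also known as Wig-1, a zinc finger protein that binds RNA and acts on mRNA stability and splicing, read 8.52, 8.54 and 8.75 in the controls. It read 9.51, 9.53 and 9.71 under Eed shRNA and 9.66, 9.71 and 9.75 under Suz12 shRNA. No knockdown array overlapped the controls, and the rises were 1.97-fold (0.98, SE 0.07, adjusted p = 8.59e-06) and 2.15-fold (1.10, SE 0.07, adjusted p = 3.73e-06). Phlda3, a pleckstrin homology protein that competes with Akt for membrane lipids, read 9.66, 9.36 and 9.57 in the controls, 10.19, 9.99 and 10.19 under Eed shRNA, and 10.20, 10.10 and 10.23 under Suz12 shRNA. Its rise was 1.51-fold (0.59, SE 0.08, adjusted p = 0.000486) and 1.56-fold (0.64, SE 0.08, adjusted p = 0.000307), again with no overlap with the controls.

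Perp, a tetraspan membrane protein of desmosomes in epithelia and a p53 effector, had the largest rise of the 9 in each comparison. Its control arrays read 6.10, 6.61 and 6.63, near the guide to background, and had an SD of 0.30, the widest of these genes in any group. Under Eed shRNA it read 8.64, 8.77 and 8.65, and under Suz12 shRNA 8.38, 8.51 and 8.42. The rise was 4.73-fold (2.24, SE 0.12, adjusted p = 1.17e-06) and 3.98-fold (1.99, SE 0.12, adjusted p = 2.29e-06). Among markers of other cell types, the epithelial marker Epcam rose too, by 0.23 and 0.28 from 6.002 ± 0.106 (SD, n = 3) to group means of 6.23 and 6.29 that stayed below the guide to background, while Krt8 changed by -0.07 and -0.10 and was not called. Their part in the rise of Perp was not tested.

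The sestrins are stress-inducible proteins that restrain mTORC1 signalling and support redox balance, and the paralogs differed in their calls. Sesn1 read 10.75, 10.59 and 10.72 in the controls, 11.19, 11.09 and 11.07 under Eed shRNA, and 11.08, 11.01 and 10.96 under Suz12 shRNA. It rose 1.35-fold (0.43, SE 0.06, adjusted p = 0.000361) and 1.25-fold (0.33, SE 0.06, adjusted p = 0.00198), with no overlap between either knockdown and the controls. Sesn2, which is also a target of the ATF4 stress response, was not called in either comparison.

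Sesn2 read 9.72, 10.20 and 9.97 in the controls, 10.16, 10.25 and 10.28 under Eed shRNA, and 10.20, 10.26 and 10.21 under Suz12 shRNA. The control arrays were widely spread, with an SD of 0.24, and replicate 2 of the controls lay among the Eed shRNA arrays and 0.0013 below the lowest Suz12 shRNA array. The changes were 0.27 (SE 0.10, adjusted p = 0.0803) and 0.26 (SE 0.10, adjusted p = 0.0886), with 95% intervals from 0.05 to 0.48 in each. The call depended on single control arrays: without control replicate 2 the changes were 0.39 (adjusted p = 0.0055) and 0.38 (adjusted p = 0.00644), whereas without control replicate 1 they were 0.14 in each (adjusted p = 0.209 and 0.234). Quantile normalization (adjusted p = 0.0482 and 0.0499) and cyclic loess (0.0395 and 0.0421) also called the gene, with all arrays kept. Sesn3, the remaining sestrin, which FOXO factors induce and which is named here with its value known, rose by 0.55 (adjusted p = 0.00118) and 0.49 (adjusted p = 0.00255). Its control mean was 6.63, not far above the guide to background.

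Arrays of a knockdown lay entirely above the controls for 8 of the 9 genes under Eed shRNA, beside 12.9% of all genes, and for 9 of 9 under Suz12 shRNA, beside 11.9%. Among the 9 genes, levels followed each other across the 9 arrays with Pearson r between 0.52 and 0.98 over 36 pairs. The highest was that of Perp and Btg2, and the lowest was that of Sesn1 and Sesn2. These are descriptions over arrays that share the step between control and knockdown.

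**Figure D2:**
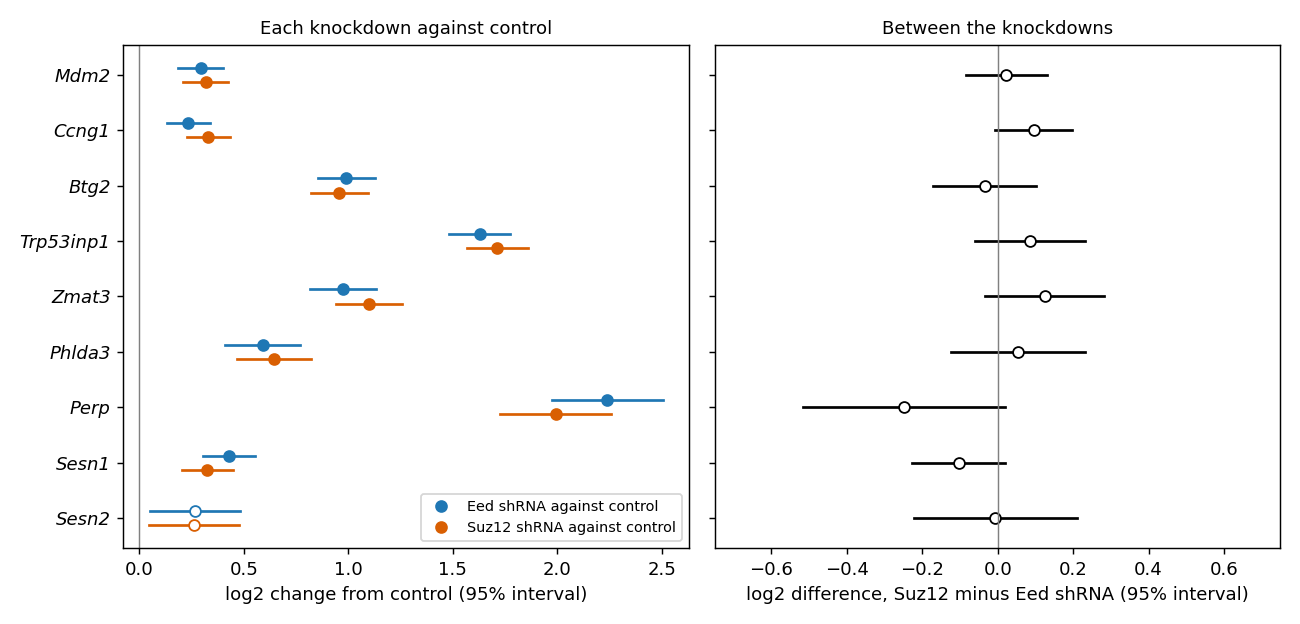
Left, log2 change from control with its 95% interval for each gene under Eed shRNA (blue) and Suz12 shRNA (orange), filled where the adjusted p was under 0.05; right, the log2 difference between the knockdowns, Suz12 minus Eed shRNA, with its 95% interval. On the left 16 of 18 points are filled and the open ones are both Sesn2, and on the right every interval includes 0.

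Between the knockdowns none of the 9 genes was called, and 0.176% of all genes were (35 of 19937). None of the 9 reached an unadjusted p under 0.05 by limma, and 1209 of all genes did. The largest difference was that of Perp, at -0.25 (95% interval -0.52 to 0.02, adjusted p = 0.847), lower under Suz12 shRNA. Sesn1 differed by -0.10 (-0.23 to 0.02), Zmat3 by 0.12 (-0.03 to 0.28) and Ccng1 by 0.10 (-0.01 to 0.20). The differences of Mdm2 (0.02, -0.08 to 0.13), Btg2 (-0.03, -0.17 to 0.10), Trp53inp1 (0.08, -0.06 to 0.23), Phlda3 (0.05, -0.12 to 0.23) and Sesn2 (-0.01, -0.22 to 0.21) were at most 0.08 in size. The arrays of the 2 knockdowns did not overlap for Perp and Ccng1, 2 of the 9, beside 10.1% of all genes. These intervals leave room for differences between the 2 shRNAs, and the missed threshold does not show that they act alike.

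Of 17 regulators around p53, 2 were higher (11.8%) and 5 lower (29.4%) in each comparison, where 8.78% and 13.1% of all genes (Eed shRNA) or 8.25% and 12.9% (Suz12 shRNA) were so called. The same 7 genes were called in both, with a list median of 0.02 under Eed shRNA and -0.03 under Suz12 shRNA. Cdkn2a, which encodes p19Arf beside p16Ink4a, rose from 7.46 ± 0.09 (SD, n = 3) to 8.86 and 8.66, by 1.40 (adjusted p = 1.83e-07) and 1.20 (adjusted p = 5.32e-07). Its single probe set is read here as the locus, not as either protein. Hipk2, a kinase that phosphorylates p53, read 11.84, 11.92 and 11.83 in the controls and rose by 0.82 (adjusted p = 3.66e-06) and 0.83 (adjusted p = 2.78e-06). Chek1, the checkpoint kinase of replication stress, fell by 0.50 (adjusted p = 0.000128) and by 0.42 (adjusted p = 0.000404), and Atr, the kinase above it, fell by 0.35 (adjusted p = 0.00174) and by 0.30 (adjusted p = 0.00504). The other lower calls were Atm, Chek2 and the p53 phosphatase gene Ppm1d, itself a p53 target. They changed by -0.31, -0.38 and -0.31 under Eed shRNA and by -0.26, -0.44 and -0.20 under Suz12 shRNA. These 3 were chosen after their values were seen. Mdm4, the partner of Mdm2, changed by 0.12 and 0.08 and was not called (adjusted p = 0.335 and 0.544).

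Of 53 further genes listed here as p53 targets, 48 were measured. The list takes in Sesn3, which FOXO factors induce, and Trp53inp2, the paralog of Trp53inp1. Both were called higher in each comparison, and whether p53 drives either was not tested. Under Eed shRNA 17 were higher (35.4%, beside 8.78% of all genes), 8 lower (16.7%, beside 13.1%) and 23 not called, with a median change of 0.06. Under Suz12 shRNA 16 were higher (33.3%, beside 8.25%), 4 lower (8.33%, beside 12.9%) and 28 not called, with a median of 0.07. Cdkn1a, the best known p53 target, was not analysed here, because its probe set carries more than 1 symbol.

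Among 10 targets that act on the cell cycle and growth, 5 were higher in each comparison, where 8.78% (Eed shRNA) or 8.25% (Suz12 shRNA) of all genes were. The mitotic gene Gtse1 was the 1 lower call under Eed shRNA (-0.17, adjusted p = 0.0128), beside 13.1% of all genes. Under Suz12 shRNA 0 were lower, beside 12.9% of all genes, and Gtse1 changed by -0.07 (adjusted p = 0.292). The difference between the knockdowns was not called for any of the 10. Gadd45a, a stress sensor that binds cyclin B kinase and PCNA, read 8.51, 9.18 and 8.72 in the controls, 9.49, 9.63 and 9.47 under Eed shRNA, and 9.48, 9.62 and 9.55 under Suz12 shRNA. Its rise was 0.73 (adjusted p = 0.00301) and 0.75 (adjusted p = 0.00275), with all knockdown arrays above the controls. Plk2, a kinase of centriole duplication and the stress response, rose by 0.84 (adjusted p = 0.000274) and 1.15 (adjusted p = 3.58e-05). Its control mean, 6.71, was not far above the guide to background. The related gene Plk3 rose by 0.35 and 0.29. Btg1, the paralog of Btg2, rose by 0.42 (adjusted p = 0.000189) and 0.41 (adjusted p = 0.000228).

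Of 8 targets of DNA repair and nucleotide supply, 1 was higher and 4 lower under Eed shRNA, beside 8.78% and 13.1% of all genes, and 1 was higher and 1 lower under Suz12 shRNA, beside 8.25% and 12.9%. The medians were -0.21 and -0.09, and the difference between the knockdowns was called for 0 of the 8. Beside Xpc, the members called lower under Eed shRNA were the translesion polymerase gene Polh (-0.22), the ribonucleotide reductase gene Rrm2b (-0.23) and Fancc (-0.21). Ddb2 changed by -0.26 and -0.24 and was not called in either comparison (adjusted p = 0.0511 and 0.0827). Polh, Rrm2b, Fancc and Ddb2 were chosen after their values were seen. Xpc, which finds damaged bases for nucleotide excision repair, fell by 0.25 in each (adjusted p = 0.0183 and 0.0179), while the endonuclease gene Ercc5 of the same pathway rose by 0.23 and 0.26 (adjusted p = 0.0407 and 0.0265). These calls were weak: that of Xpc was lost in 4 of 17 other settings in each comparison, and that of Ercc5 in 10 under Eed shRNA and 5 under Suz12 shRNA.

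Of 10 metabolic and redox targets, 3 were higher and 1 lower under Eed shRNA (40% called, beside 21.8% of all genes), and 3 were higher and 2 lower under Suz12 shRNA (50%, beside 21.2%). Changes over the 10 lay between -0.20 and 0.27 under Eed shRNA and between -0.19 and 0.25 under Suz12 shRNA. Ephx1, the microsomal epoxide hydrolase, rose by 0.27 and 0.25 (adjusted p = 0.000779 and 0.00137) from a control mean of 6.40, near the guide to background. The xylulose reductase gene Dcxr rose by 0.17 and 0.20 and the lysosomal peptidase gene Tpp1 by 0.18 and 0.16, and Tigar, which lowers glycolytic flux, fell by 0.20 and by 0.19. The adenylate kinase gene Ak1 fell by 0.19 under Suz12 shRNA, as the remaining lower call. Several of these calls were weak. Of 17 other settings, the call of Tigar was lost in 6 in each comparison. That of Tpp1 was lost in 1 under Eed shRNA and 5 under Suz12 shRNA, and that of Dcxr in 3 and 0. Among these settings, quantile normalization lost the calls of Tigar (adjusted p = 0.0652 and 0.102). Array median centring lost those of Tpp1 (0.0608 and 0.0736) and that of Dcxr under Eed shRNA (0.0571).

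The genes listed as signalling, autophagy and membrane targets held the largest rise of the pathway. Sesn3 and Trp53inp2 are among them, and both count as higher in each comparison. Of 12 measured, Eed shRNA gave 7 higher calls (58.3%, beside 8.78% of all genes) and 1 lower (8.33%, beside 13.1%), and Suz12 shRNA 6 higher (50%, beside 8.25%) and 1 lower (8.33%, beside 12.9%). Thbs1, the matrix protein thrombospondin-1, read 9.24, 9.95 and 9.67 in the controls, 12.78, 12.97 and 12.79 under Eed shRNA, and 12.55, 12.65 and 12.65 under Suz12 shRNA. It rose by 3.22 (adjusted p = 3.1e-07) and 2.99 (adjusted p = 4.93e-07). Trp53inp2, the paralog of Trp53inp1 and an autophagy protein, read 8.80, 8.79 and 8.57 in the controls and rose by 1.13 (adjusted p = 5.83e-06) and 1.17 (adjusted p = 4.29e-06). The mTORC1 inhibitor Ddit4 rose by 0.73 and 0.59 (adjusted p = 0.000103 and 0.000421). Eda2r, a receptor of the TNF receptor family, rose by 0.39 and 0.57 from 6.12, which is below the guide to background. Dram1, a lysosomal protein of autophagy, was the 1 member called lower (-0.25 and -0.22).

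Of 8 apoptotic targets, 1 was higher and 1 lower under Eed shRNA (25% called, beside 21.8% of all genes), and 1 was higher and 0 lower under Suz12 shRNA (12.5%, beside 21.2%), with medians of -0.004 and 0.07. These shares lie near or below those of all genes. The death receptor gene Tnfrsf10b rose by 0.29 (adjusted p = 0.00144) and 0.37 (adjusted p = 0.000378). The inflammatory caspase gene Casp1 was the lower call under Eed shRNA (-0.32, adjusted p = 0.00749) and changed by -0.16 under Suz12 shRNA. Chosen with their values known, the BH3-only genes Bbc3, also called Puma (0.13 and 0.08), and Pmaip1, also called Noxa (-0.08 and -0.13), had no call in either comparison.

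**Figure D3:**
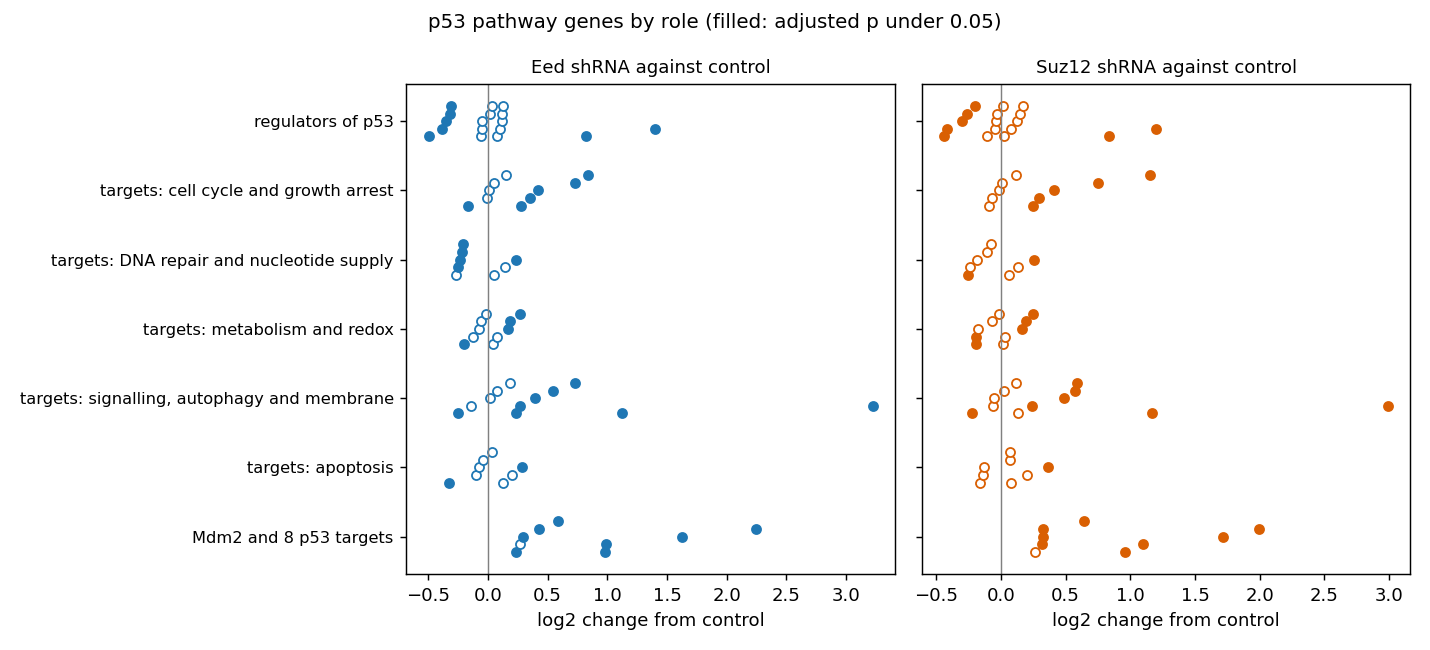
Log2 change from control of each measured p53 pathway gene under Eed shRNA (left) and Suz12 shRNA (right), 1 point per gene in rows by role, filled where the adjusted p was under 0.05; height within a row has no meaning. The 9 genes of the bottom row all lie right of 0, whereas the rows of regulators and other targets spread to both sides. Thbs1, at 3.22 and 2.99, lies farthest to the right. All rows were drawn up with earlier results of these data known, so the contrast between them may reflect that choice.

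Of the 9 genes taken as markers of the myeloid line, Eed shRNA gave 4 higher and 2 lower, beside 8.78% and 13.1% of all genes, and Suz12 shRNA 3 higher and 2 lower, beside 8.25% and 12.9%. Itgam, an integrin of myeloid cells, rose by 0.70 and 0.69 (adjusted p = 4.93e-06 and 4.97e-06), Ptprc by 0.27 and 0.24 and Spi1 by 0.23 and 0.27. The granulocyte transcription factor Cebpa fell by 0.73 and by 0.82 and the granule gene Mpo by 0.23 and by 0.27. Meis1 was higher under Eed shRNA (0.21) and not called under Suz12 shRNA (0.17). Csf1r (0.07 and 0.10), Kit (-0.10 and -0.14) and Hoxa9 (-0.10 and -0.07) were not called in either comparison. Their part in the rise of the p53 targets was not tested.

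The 5 genes whose levels were most like those of Mdm2 over the 9 arrays lay outside the p53 lists used here. They were Rassf3 (Pearson r = 0.987), the myelin gene Mag (0.986), the iron exporter gene Slc40a1 (0.985), Prrg4 (0.984) and the sulfate activation gene Papss2 (0.984). In all, 621 genes had an r over 0.9 with Mdm2, and the arrays share the step between control and knockdown, so this order is a description only. Slc40a1 changed by 1.32 and 1.43, against 0.29 and 0.32 for Mdm2, since r takes no account of size.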

How the data were processed

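The deposited table holds log2 values that the authors made by RMA, per the submitters' processing notes; its version: not given in the sources used here. Arrays were labelled by the Affymetrix whole-transcript protocol, per the labels' protocols. Of 34760 probe sets, 21640 carried 1 symbol, 1321 several and 11799 were unnamed here; the brightest probe set stood for each gene, giving 19937 genes. Each of the 9 genes has 1 probe set. The groups were compared with limma 3.58.1 (R 4.3.3), using lmFit and eBayes on all 9 arrays with a mean for each group (residual degrees of freedom 6, prior 4.11). Two-sided tests were adjusted by Benjamini-Hochberg over all genes and called under 0.05. The fit was also run on simulated data, with values drawn independently for each gene and array. That run held no effects shared across an array, so it does not bear on them. The number of arrays limits the precision. Alternatives were 3 scalings, a filter on dim genes, the mean of a gene's probe sets, a variance trend, fits on 2 groups, the replicate number as a block, and leaving out each array.

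The genes, pathway lists and tests were chosen with earlier results of these data known. All 10 genes were to be named, with, per role, the pathway genes called in both comparisons (at most the 4 with the smallest F-test p), Cdkn2a, Mdm4, Eed and Suz12, and the 5 genes most like Mdm2. RNA was hybridized, not counted, so no depth applies. Promoter sequences are those of RefSeq on GRCm38.p6.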

Additional observations from a re-analysis of the deposited data

How the results depend on the processing

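Over 17 alternatives, no called change of the 9 genes lost its call or changed sign, and Sesn2 gained its call in 4 alternatives in each comparison. The number of the 9 called stayed between 8 and 9 in each comparison with the control and by the F test, and at 0 between the knockdowns. Of the 65 other pathway genes measured, 32 were called under Eed shRNA (49.2%, beside 21.8% of all genes), and 24 to 35 over the alternatives. Under Suz12 shRNA 27 were called (41.5%, beside 21.2%), and 19 to 30 over the alternatives. The calls over all genes moved too, from 3428 to 4683 under Eed shRNA and from 3375 to 4483 under Suz12 shRNA. The count of all genes called between the knockdowns, 35, was 8 to 37 when 1 array was left out, with fewer arrays in the fit; the lowest, 8, came without Eed shRNA replicate 2. The sample numbers gave no sign of pairing. Deviations from the group means correlated between -0.17 and 0.20 for arrays of the same number, and between -0.33 and 0.27 for different numbers. With 3 arrays a group this cannot show that pairing was absent. With the replicate block Sesn2 was called in both comparisons (0.27, adjusted p = 0.0439, and 0.26, adjusted p = 0.0493), and 9 of the 9 genes were then called in each. No scaling moved the median change of all genes by more than 0.05. The number of arrays, 3 a group, limits what a difference between the knockdowns could show.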
